A study of Mus musculus with 6 samples.

Results

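The immediate early genes described here are 9 mouse genes, Fos, Fosb, Jun, Junb, Egr1, Atf3, Ier2, Myc and Btg2. They were read from every probe set whose platform annotation gave exactly 1 gene symbol from these 9, which found 11 of the 45101 probe sets and 9 of the 18194 genes on the array. Jun and Btg2 each had 2 probe sets, and 0 probe sets named a member together with another gene. The samples were 6 muscle RNA preparations, each hybridized to its own Affymetrix whole-genome array, from female C57BL/6 mice that had all been ovariectomized at 4 months of age. The 3 OVX samples came from mice with a placebo pellet and the 3 OVX + E2 samples from mice with a pellet that released 0.18 mg of 17β-estradiol (E2) over 60 days. No group with intact ovaries was part of these arrays, so both groups share the loss of ovarian hormones. The labels do not say whether each array was a separate mouse, and p-values measure the spread between these samples. Whole muscle was extracted, so fewer cells of a type and less RNA per cell cannot be told apart.

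Immediate early genes are genes whose transcription starts within minutes of a stimulus and needs no newly made protein. Growth factors, stretch, contraction, cellular stress and tissue handling all switch them on, through kinase cascades that act on transcription factors already bound to their promoters, and their transcripts are short-lived. Fos and Jun proteins pair to form the transcription factor AP-1, Egr1 is a zinc finger transcription factor, Atf3 is a stress-induced factor, Myc is a growth regulator, and Btg2 restrains proliferation. In skeletal muscle they are best known for brief induction after exercise, stretch or injury.

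None of the 9 genes passed the test of OVX + E2 against OVX. The 2 groups overlapped for all 11 probe sets, and the largest estimated difference was −0.39 on the log2 scale, for a Jun probe set (95% interval −0.88 to 0.10), which became −0.02 (−0.18 to 0.15) with both arrays numbered 3 left out. What several of these genes showed was a wide spread between arrays of the same group, in OVX mostly through replicate 3. It was not particular to them, as several lists of cell type markers had a wider median range in OVX. The pooled SD of 5 of the 11 probe sets lay in the top 5% of the array. The OVX range of Ier2, in contrast, exceeded that of only 35.3% of all probe sets, although its OVX + E2 range exceeded that of 94.2%. Fos spanned 1.85 log2 units, or 3.61-fold, over the 3 OVX arrays, and OVX replicate 3 held the highest value of all 6 arrays for Fos, Fosb, both Jun probe sets, Myc and both Btg2 probe sets.

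The arrays themselves were checked before these values were read. The median log2 value per array ran from 6.90 to 6.93. The labels give left ventricle as the tissue, whereas the study describes soleus muscle. All 8 skeletal muscle markers, among them Acta1, Ckm and Myh7, were in the brightest 5% of probe sets, and 0 of 8 heart markers were, Myh6, Nppa and Tnni3 included. Genes of fast-twitch fibres separated the arrays: the mean deviation of 7 such genes from their own means over the 6 arrays was 0.23, 0.37 and 1.17 log2 units in OVX replicates 1 to 3, and 0.46, −0.21 and −2.01 in the E2 group. All 7 were highest on OVX replicate 3, and the arrays numbered 3 stood at the opposite ends of the scale. For some differences, ranges and correlations of the members, the value without these arrays is given as well.

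Signals reach these genes through short sites in their promoters. Of these promoters 4 are shown because they hold a match to a cyclic AMP response element (CRE), the site of Creb and Atf factors, or to its close relative in the Jun promoter. RefSeq promoter sequence (assembly GRCm38.p6) was matched for 6 of the 9 genes, Fos, Fosb, Jun, Junb, Atf3 and Btg2. The 250 bases before each start were searched on both strands. Each line gives 100 bases on the gene's strand, 5′ to 3′, ending at the base before the start, except for Btg2, whose stretch covers bases 200 to 101 before the start. Capitals mark TGACGT (or ACGTCA, its reverse complement), TGACNTCA and, for Fos, TATAA.
Fos promoter: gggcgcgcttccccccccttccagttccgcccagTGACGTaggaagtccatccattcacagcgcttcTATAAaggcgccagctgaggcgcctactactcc
Jun promoter: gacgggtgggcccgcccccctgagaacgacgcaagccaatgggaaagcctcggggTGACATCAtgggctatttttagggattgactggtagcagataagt
Atf3 promoter: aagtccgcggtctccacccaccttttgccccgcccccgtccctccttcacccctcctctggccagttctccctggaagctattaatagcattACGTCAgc
Btg2 promoter: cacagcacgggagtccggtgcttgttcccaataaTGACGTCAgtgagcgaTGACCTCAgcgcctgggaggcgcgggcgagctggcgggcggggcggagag

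The stretches are chr12:85473790-85473889 on the plus strand for Fos, and on the minus strand chr4:95052223-95052322 for Jun, chr1:191183334-191183433 for Atf3 and chr1:134079256-134079355 for Btg2. In Fos, TGACGT begins 66 bases and TATAA 33 bases before the start. The Jun match begins 45 bases before the start, and the ACGTCA of Atf3 begins 8 bases before it. Btg2 holds a full palindrome, TGACGTCA, 166 bases before the start and a second match, TGACCTCA, 150 bases before it. TGACGT, which also lies inside TGACGTCA, was present in 3 of the 6 member promoters and in 6.47% of 32851 promoters of the same length. TGACNTCA was present in 2 of 6 (Jun and Btg2) and in 7.49% of all, and TATAA in 1 of 6 and 22.8% of all. The AP-1 site TGANTCA was in 0 of 6 (6.75% of all), the CArG box bound by serum response factor in 0 of 6 (1.47% of all), and the estrogen response element, GGTCA and TGACC 3 bases apart, in 0 of 6 and in 21 promoters of all, 0.0639%. These matches describe letters in a short window and are no evidence of binding. A count of 0 covers only these 250 bases of 6 promoters, Egr1 not among them, and says nothing of sites farther upstream.

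Fos, the founding member of its family and a partner of Jun in AP-1, had log2 values of 8.10, 7.71 and 9.56 in OVX against 8.17, 8.28 and 8.88 in OVX + E2. OVX replicate 3 was the highest of all arrays and OVX replicate 2 the lowest, so the placebo group enclosed the E2 group entirely. The means were 8.45 ± 0.98 (SD, n = 3) in OVX and 8.44 ± 0.39 (SD, n = 3) in OVX + E2. Fosb, the closest relative of Fos, read 6.47, 6.54 and 6.72 in OVX against 6.66, 6.52 and 6.56 in OVX + E2. This probe set was dim, brighter than 30.1% of all. Its 6 values spanned 0.25 log2 units and the groups overlapped, yet its OVX range exceeded that of 86.9% of all probe sets.

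Jun, the partner of Fos in AP-1, read 9.47, 9.38 and 10.11 in OVX against 9.34, 9.48 and 8.97 in OVX + E2 on its brighter probe set (1417409_at). The arrays numbered 3 were the highest and the lowest of the 6, and the remaining 4 lay close together across both groups. The second Jun probe set (1448694_at) read 8.63, 8.57 and 8.94 in OVX against 8.46, 8.69 and 8.53 in OVX + E2. It was again highest on OVX replicate 3, with a smaller step, and the correlation between both Jun probe sets over the 6 arrays was 0.89. Junb, which can take the place of Jun in AP-1, had 7.29, 7.18 and 7.35 in OVX against 7.36, 7.18 and 7.41 in OVX + E2. Its groups were nearly superimposed, with the lowest value of each on replicate 2.

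Egr1, which binds GC-rich promoters after growth and stress signals, read 8.41, 8.35 and 8.77 in OVX against 8.33, 8.31 and 9.27 in OVX + E2. OVX + E2 replicate 3 stood well above all others and OVX replicate 3 came next, while the other 4 arrays were level. Atf3, a repressor and activator induced by cellular stress, read 8.75, 8.70 and 9.18 in OVX against 8.63, 9.41 and 8.86 in OVX + E2. Here yet another array was highest, OVX + E2 replicate 2, followed by OVX replicate 3. Fos, Egr1 and Atf3 thus peaked on 3 different arrays.

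Ier2, a small nuclear protein of the serum response, read 7.74, 7.79 and 7.71 in OVX against 7.59, 7.55 and 7.87 in OVX + E2. It was the single member that was not highest on replicate 3 within OVX. Myc, the growth-promoting transcription factor, read 6.63, 6.64 and 6.84 in OVX against 6.66, 6.69 and 6.73 in OVX + E2, on a probe set brighter than 37.5% of all. Its highest array was OVX replicate 3 as well, by a small margin. Btg2, which promotes removal of poly(A) tails and slows the cell cycle, read 9.28, 9.43 and 9.76 in OVX against 9.49, 9.48 and 9.42 in OVX + E2 on probe set 1416250_at. Its other probe set, 1448272_at, read 9.27, 9.33 and 9.80 in OVX against 9.43, 9.26 and 9.38 in OVX + E2, and the 2 correlated at 0.90 over the arrays. On both, OVX replicate 3 was above an otherwise level series.

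**Figure D1:**
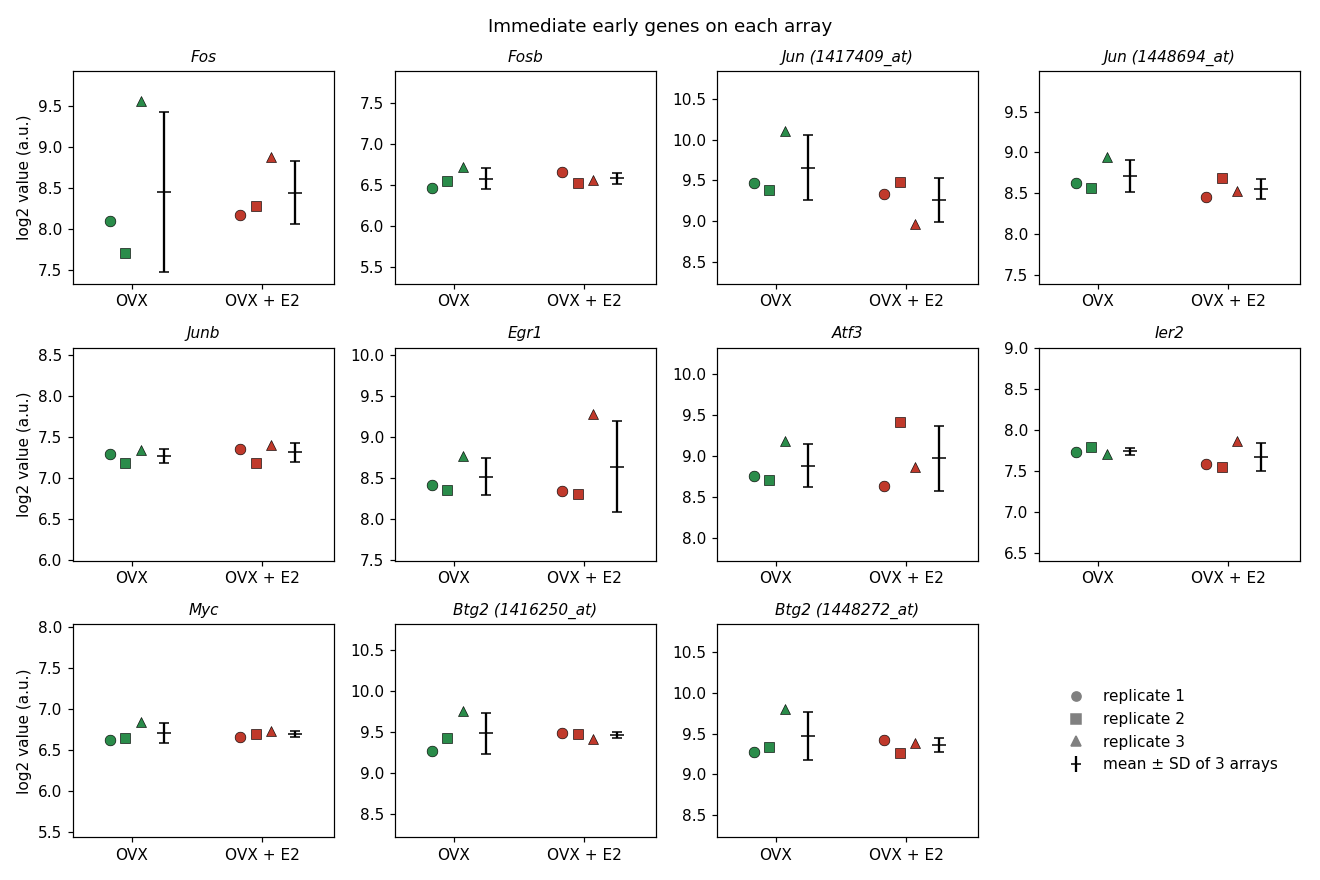
Deposited log2 value (arbitrary units) of each of the 11 member probe sets on each array, with OVX in green, OVX + E2 in red, the replicate number as the symbol and the mean ± SD of 3 arrays beside the points. Every vertical axis has the same height in log2 units; levels are not comparable between probe sets. OVX replicate 3 is the highest point for Fos (9.56), Fosb, Jun, Myc and Btg2, OVX + E2 replicate 3 for Egr1 (9.27), Junb and Ier2, and OVX + E2 replicate 2 for Atf3 (9.41).

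Whether E2 replacement changed these genes was tested with limma across all probe sets. At the study's threshold, an unadjusted p of 0.001, 0 of the 11 member probe sets were called, against 0.213% of all probe sets. At an unadjusted p of 0.05, 0 members were lower and 0 higher in OVX + E2, against 9.43% lower and 4.35% higher among all probe sets; an ordinary unpaired test gave 0 at both thresholds too. Counted by gene, with the brightest probe set of each, the background was 13.3% lower and 4.62% higher, and again 0 of 9 members were called. The groups did not overlap for 21.2% of all probe sets and for 0 members. After adjustment over the whole array 0 of 45101 probe sets passed 0.05, with limma's unadjusted p under 0.05 in 6216 of them.

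The differences that were left were small beside their intervals, given here as OVX + E2 minus OVX on the log2 scale with the 95% interval from limma. Jun gave −0.39 (SE 0.21, interval −0.88 to 0.10), which is 0.762-fold (0.542 to 1.07), with an unadjusted p of 0.102 and an adjusted p of 0.429. An exact permutation test of the same difference, two-sided, gave a p of 0.3, where 3 arrays against 3 cannot go below 0.1. Without OVX replicate 3 the difference was −0.16 (−0.50 to 0.17), without OVX + E2 replicate 3 it was −0.25, and without both it was −0.02 (−0.18 to 0.15). With the fast-fibre genes as a covariate it was −0.09 (−0.55 to 0.36). The second Jun probe set gave −0.16 (−0.40 to 0.09), and −0.03 without both arrays numbered 3. Fos gave −0.01 (SE 0.45, interval −1.08 to 1.06), so that anything from 0.472-fold to 2.09-fold fell inside its interval. Little can be read from the near-zero mean of Fos when its arrays vary this much.

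For Egr1 the difference was 0.12 (−0.49 to 0.74) and for Atf3 0.09 (−0.40 to 0.58). Junb gave 0.04 (−0.12 to 0.21), Fosb 0.005 (−0.16 to 0.17), Myc −0.01 (−0.16 to 0.14) and Ier2 −0.08 (−0.27 to 0.12). The Btg2 probe sets gave −0.03 (−0.29 to 0.24) and −0.11 (−0.43 to 0.20). The intervals of Fosb, Junb and Myc are thus the narrowest, although the scale of these arrays compresses differences of dim probe sets such as Fosb and Myc. The median over the 11 probe sets was −0.01, beside −0.005 over all probe sets, with 7 of 11 below 0 against 52.3% of all. After quantile normalization or cyclic loess of the deposited values, 5 of 11 were below 0, and Fos and both Btg2 probe sets turned positive while Fosb turned negative.

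**Figure D2:**
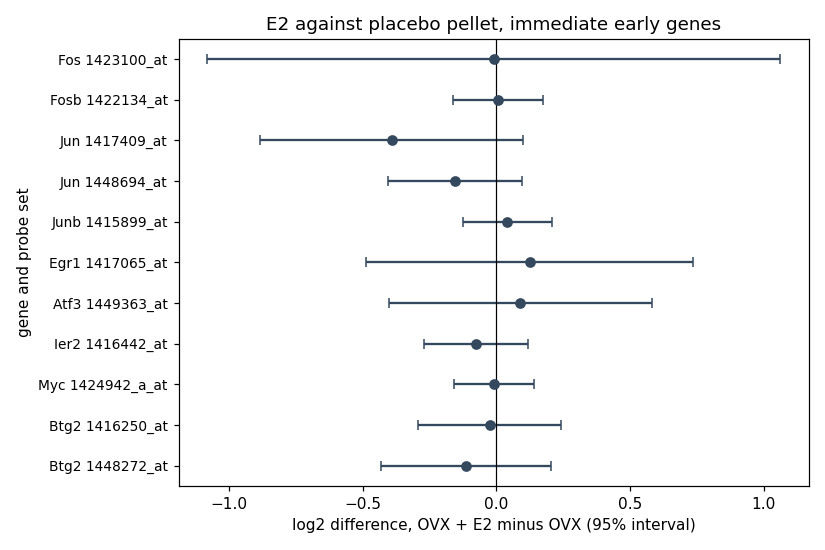
Log2 difference, OVX + E2 minus OVX, for each member probe set (points) with its 95% interval from limma (bars); the vertical line marks no difference. All 11 intervals include 0, and they are widest for Fos (−1.08 to 1.06) and Egr1 (−0.49 to 0.74).

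Several of these values depended on the arrays numbered 3. Besides Jun, above, Egr1 went from 0.12 to −0.06 with both left out, and the Btg2 probe sets went from −0.03 to 0.13 and from −0.11 to 0.04, all with intervals that included 0. Atf3 went from 0.09 to 0.29 and Fosb from 0.005 to 0.09, also with intervals that included 0. Calls changed for Fos and Ier2. Without OVX replicate 3, Fos was 0.54 higher in OVX + E2 (interval 0.01 to 1.07, limma, unadjusted p 0.0468), the single member called upward, beside 3.17% of all probe sets. Without OVX + E2 replicate 3, Ier2 was 0.17 lower (difference −0.17, interval −0.29 to −0.06, unadjusted p 0.00900), the single member called downward, beside 5.70% of all. With both arrays numbered 3 left out, which leaves 2 arrays against 2, Fos (0.32, p 0.0426) and Ier2 (−0.19, p 0.00898) passed 0.05, which is 2 of 11 beside 9.65% of all probe sets. No other member passed 0.05 with any single array left out. The sign for Fos went both ways with single arrays left out: dropping OVX replicate 1 or 2 gave −0.19 and −0.39, and dropping replicate 1, 2 or 3 of OVX + E2 gave 0.13, 0.07 and −0.23.

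The spread within the groups was described without a test, as the highest minus the lowest of the 3 arrays. Fos was the single member over 1 log2 unit in OVX, beside 0.293% of all probe sets, and 9 of the 45101 probe sets were wider. In OVX + E2, 0 members passed 1 log2 unit, beside 0.228% of all. Even without replicate 3 Fos differed by 0.39 between the first and second OVX arrays, and over the OVX + E2 arrays it spanned 0.72, a 1.64-fold range.

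Egr1 came closest to the mark in OVX + E2 with 0.97, a 1.95-fold range, and 109 probe sets were wider there. After quantile normalization it spanned 1.07 and after cyclic loess 1.03. Atf3 spanned 0.78 in OVX + E2, or 1.72-fold, and 0.47 in OVX. Jun spanned 0.73 and 0.51 on its brighter probe set, and 0.37 and 0.23 on the other. Egr1 and Atf3 had the wider range with E2, each through 1 array. Without OVX + E2 replicate 3 Egr1 spanned 0.03 there, beside 0.42 in OVX, and without OVX + E2 replicate 2 Atf3 spanned 0.23, beside 0.47 in OVX.

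Btg2 went the other way, with 0.49 and 0.53 over the OVX arrays on its 2 probe sets and 0.07 and 0.17 over the OVX + E2 arrays. Myc also spanned more in OVX (0.22) than in OVX + E2 (0.07), and so did Fosb (0.25 and 0.13). Junb spanned 0.16 and 0.22, and Ier2 0.08 and 0.31. In all 7 of the 11 were wider in OVX, beside 53.6% of all probe sets. Without OVX replicate 3, with 2 placebo arrays against 3, 1 of the 11 (Btg2 1416250_at) was wider in OVX, beside 30.4% of all, and Fos spanned 0.39, Jun 0.09 and 0.07, and Myc 0.02. The median range over the members was 0.42 in OVX and 0.23 in OVX + E2. The median over all probe sets was 0.11 and 0.10, and over the brighter ones 0.14 and 0.12. The pooled SD of 5 of the 11 members lay in the top 5% of the array.

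**Figure D3:**
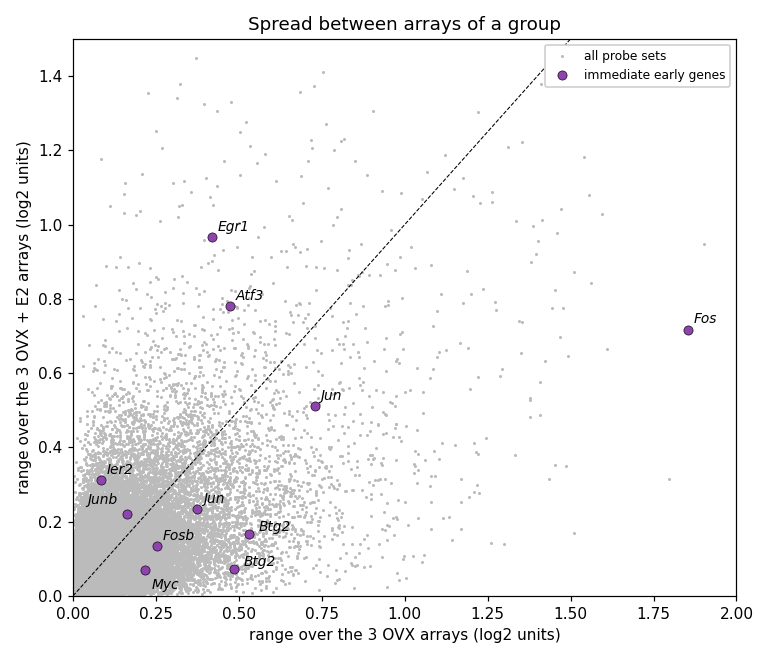
Range over the 3 OVX arrays (horizontal, log2 units) against the range over the 3 OVX + E2 arrays (vertical, log2 units) for all probe sets (grey) and the 11 members (purple, named); the dashed line marks equal ranges and 24 probe sets lie outside the axes. Fos is far to the right at 1.85, Egr1 (0.97) and Atf3 (0.78) are above the line, and Jun and Btg2 are below it.

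Within OVX, replicate 3 was the highest of the 3 arrays for 10 of the 11 member probe sets (8 of 9 genes), beside 36.5% of all probe sets. Over all 6 arrays it was the highest for 7 (5 genes), beside 21.5% of all. Quantile normalization, cyclic loess and centring each array on its median left these counts at 7 and 10. Within OVX + E2, replicate 3 was highest for 5 of 11, beside 33.0% of all. The mean deviation of the 9 genes from their own means was −0.11, −0.16 and 0.31 log2 units in OVX, against −0.10, −0.03 and 0.09 in OVX + E2.

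Over the 6 arrays, the profile of Myc correlated with the mean of the other members at 0.98 and that of Fos at 0.96. Btg2 (0.76) and Fosb (0.63) followed, then Junb (0.45), Egr1 (0.44), Atf3 (0.38), Jun (0.37) and Ier2 (0.06). These values are descriptions over 6 arrays that share their hybridizations. Deviations were averaged without scaling, so Fos, with the largest (1.11 on OVX replicate 3, beside 0.14 for Myc), weighed most in the mean set against each other gene. Each gene was read here from its brightest probe set, 1417409_at for Jun. That probe set was lowest on OVX + E2 replicate 3, where Fos and Egr1 were high. The other Jun probe set was lowest on OVX + E2 replicate 1. Without OVX + E2 replicate 3 the correlation of Jun was 0.97 and that of Egr1 0.90. Without OVX replicate 3 Jun stood at −0.84, Btg2 at 0.07, Atf3 at 0.05 and Fosb at −0.03, while Fos (0.89) and Myc (0.93) stayed high. Over the 4 arrays left without either, Myc stood at 0.79, Fos at 0.61, Jun at 0.43, Atf3 at 0.26 and Btg2 at 0.12. Fosb stood at −0.21 over these arrays, Junb at −0.30, Egr1 at −0.63 and Ier2 at −0.92. With the mean of the fast-fibre genes, Jun correlated at 0.83, Egr1 at −0.65 and Fos at −0.01. The part that fibre type or any other property of the arrays numbered 3 had in the spread was not tested.

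Markers of other cells were below their own means on OVX replicate 3, apart from the neutrophil list. On that array the mean deviation was −0.24 for 7 endothelial genes, −0.07 for 7 macrophage and leukocyte genes, −0.08 for 6 fibroblast genes, −0.16 for 5 smooth muscle genes, −0.48 for 4 fat cell genes, −0.48 for 3 nerve and Schwann cell genes, −0.12 for 5 satellite cell genes, −0.10 for 4 erythroid genes and 0.07 for 4 neutrophil genes. On OVX + E2 replicate 3, where Egr1 was highest, the mean deviation of the 4 erythroid genes was 0.36. Alas2, the first enzyme of heme synthesis in red cells, led them there, with a log2 value of 9.26. The median range of these 4 genes over the OVX + E2 arrays was 0.29, and 1 of them was highest of all arrays on OVX replicate 3. On OVX + E2 replicate 3 the neutrophil genes stood at 0.16, the macrophage genes at 0.09 and the endothelial genes at 0.08. On the same array the fibroblast genes stood at −0.22, smooth muscle at −0.19, nerve and Schwann cell at −0.18, fat cell at −0.16 and satellite cell at −0.002. The endothelial genes were highest on OVX replicate 2, at 0.33, where Egr1 read 8.35. The part of blood or vessel cells in the level of Egr1 was not tested. Between the groups, 2 of 6 fibroblast markers (Dcn and Pdgfra) and 2 of 8 skeletal muscle markers (Ryr1 and Ckm) were lower with E2 at an unadjusted p of 0.05, 1 of 4 neutrophil markers (Cxcr2) was higher, and 0 markers of the other lists passed, the fast-fibre genes included, beside 13.3% lower and 4.62% higher among all genes. The groups were still not alike in the fast-fibre genes: all 7 were below 0, with a median difference of −1.51. Their median range was 1.12 in OVX and 3.05 in OVX + E2.

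Genes of the same response outside the 9 were read from fixed lists, 1 brightest probe set per gene. Of 20 other immediate early transcription factors, all measured, 3 were lower and 0 higher at an unadjusted p of 0.05 in limma, a share near the 13.3% lower among all genes (4.62% higher), with a median difference of −0.01. They were Cebpb (−0.17, p 0.0047), Klf6 (−0.23, p 0.0387) and Klf2 (−0.25, p 0.0476). The spread was again wide, with a median range of 0.30 in OVX and 0.15 in OVX + E2.

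Nr4a1, an orphan nuclear receptor induced by contraction, was the widest of them. It read 9.64, 9.38 and 10.89 in OVX against 9.40, 9.34 and 9.23 in OVX + E2, a range of 1.51 in OVX, and its difference of −0.65 (SE 0.35, unadjusted p 0.107 in limma) became −0.14 without both arrays numbered 3. Cebpd, a transcription factor of inflammation, read 8.17, 8.35 and 9.10 in OVX against 8.17, 7.89 and 8.13 in OVX + E2. Nfil3, a basic leucine zipper repressor, read 8.18, 8.22 and 8.98 in OVX against 7.95, 8.13 and 7.94 in OVX + E2. The differences were −0.48 for Cebpd (p 0.0693) and −0.45 for Nfil3 (p 0.0621), and −0.24 and −0.16 without both arrays numbered 3. These 3 factors shared with Fos and Jun the high value on OVX replicate 3, but unlike Fos they were not high on OVX + E2 replicate 3.

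Of 26 immediate early signalling and matrix genes 23 were measured, of which 2 were lower and 0 higher at 0.05, beside 13.3% lower among all genes, with a median difference of −0.04. Rhob, a small GTPase, gave −0.33 (p 0.0178) and Sgk1, a kinase induced by serum and glucocorticoids, −0.49 (p 0.0260). Sgk1 read 9.87, 10.05 and 10.59 in OVX against 9.78, 9.53 and 9.73 in OVX + E2, with no overlap between the groups. Gadd45g, a growth arrest gene, spanned 1.44 in OVX, with 7.84, 8.36 and 9.28, and read 7.85, 7.93 and 7.61 in OVX + E2 (difference −0.70, SE 0.32, unadjusted p 0.0675, and −0.21 without both arrays numbered 3). Ccn1, a matrix protein induced by stretch, spanned 0.53 in OVX and 0.39 in OVX + E2. In this list 11 of 23 genes were highest on OVX replicate 3, beside 22.9% of all genes.

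Among 14 other members of the Fos, Jun and Atf families 13 were measured, with 1 lower and 0 higher at 0.05, against the same 13.3% of all genes lower, and a median difference of −0.06. That gene was Fosl2 (−0.17, p 0.0036), whose 2 probe sets differed in sign. Atf2, Atf5 and Mafg had the widest ranges in OVX, 0.49, 0.48 and 0.45. Of 13 genes of the Myc network 11 were measured, with 2 lower, Zbtb17 (−0.11, p 0.0164) and Mlxip (−0.26, p 0.0287), and 1 higher, Mycn (0.13, p 0.0123), against 13.3% lower and 4.62% higher among all genes, and a median of −0.07.

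Of 21 feedback phosphatases and RNA decay factors, which end the immediate early response, 20 were measured. At 0.05, 4 were lower and 0 higher, beside 13.3% lower among all genes, with a median of −0.09. The 4 were Cnot8 (−0.19, p 0.0096), Spry1 (−0.20, p 0.0255), Zfp36l1 (−0.18, p 0.0341) and Cnot7 (−0.12, p 0.0361). Dusp1, the phosphatase that switches off stress kinases, read 10.60, 10.51 and 11.00 in OVX against 10.19, 10.86 and 10.45 in OVX + E2. Within each group its highest array was the one on which Atf3 was highest too, and its difference was −0.21 (SE 0.19, unadjusted p 0.306), or −0.03 without both arrays numbered 3. Zfp36l2, an RNA decay factor, spanned 0.59 in OVX but was lowest on replicate 3, and Tob2, a relative of Btg2, spanned 0.57 and was highest there.

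The kinases and factors upstream of these genes gave the largest count. Of 32 listed, 21 were measured, and all 21 were below 0, as were 10006 of the 18194 genes. At 0.05, 10 were lower, beside 13.3% of all genes, and the median difference over the 21 was −0.19 against −0.01. Of the 21 genes, 15 had their highest value on OVX replicate 3, beside 22.9% of all genes. Their mean deviation was 0.18 on that array and −0.14 on OVX + E2 replicate 3. Rps6ka3, the kinase RSK2, gave −0.39 (SE 0.13, p 0.0192) and read lower with E2 on all 3 of its probe sets, and Map2k2, which activates ERK, gave −0.24 (SE 0.07, p 0.0126) and read lower on both of its own. Mapk14, the stress kinase p38α, gave −0.21 (p 0.0080), with 4 of 6 probe sets of that sign. Elk4, a partner of serum response factor, gave −0.21 (p 0.0063) on its brightest probe set, but another of its 4 probe sets (1422233_at) gave 0.24 (p 2.38e-04) in the opposite direction. The other 6 were Mrtfa, Mrtfb, Map2k4, Map2k3, Map2k1 and Braf.

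These counts depended on the scaling of the arrays. After cyclic loess 20 of the 21 upstream genes were below 0 and 1 was lower at 0.05, and after quantile normalization 17 and 0, with a median of −0.07 and −0.05. Among all 45101 probe sets, 3424 passed 0.05 in either direction after cyclic loess and 3510 after quantile normalization. Under both, 0 of the feedback factors, the signalling genes and the other transcription factors were lower at 0.05, 1 of the transcription factors was higher, and the medians of these 3 lists and of the Fos, Jun and Atf families turned positive. Mycn was still higher, by 0.18 (p 0.0042) after cyclic loess and 0.20 (p 0.0050) after quantile normalization. With both arrays numbered 3 left out, 21 of 21 upstream genes were below 0 and 5 were lower at 0.05, beside 9.65% of all probe sets called in either direction.

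**Figure D4:**
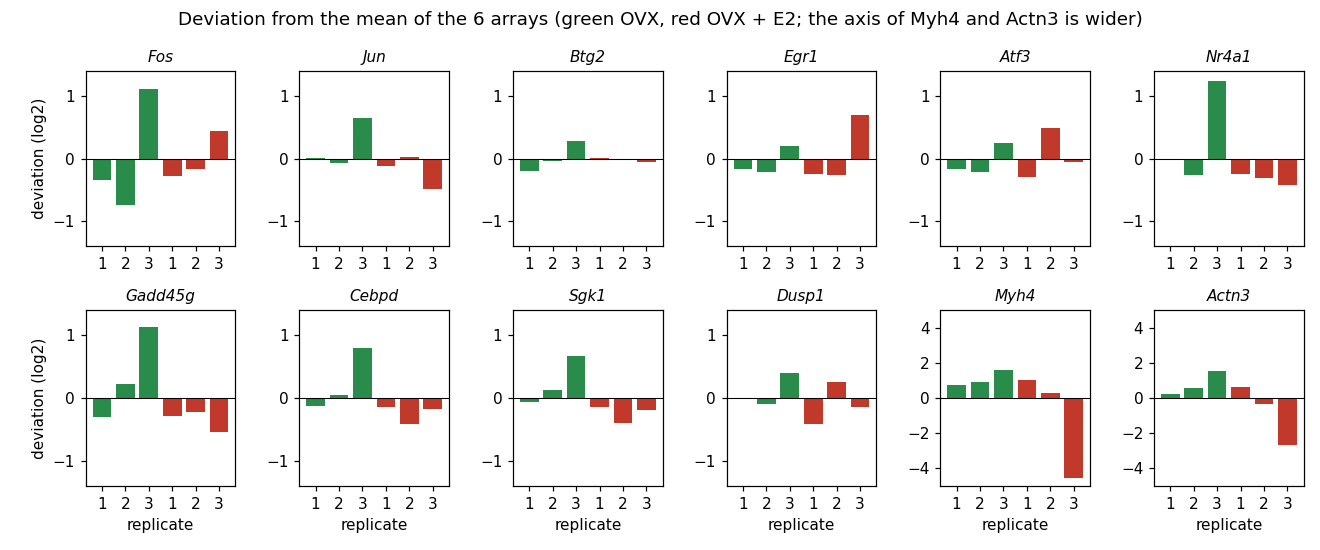
Deviation of each gene's brightest probe set from its mean over the 6 arrays (log2 units), with bars for OVX replicates 1 to 3 in green and OVX + E2 replicates 1 to 3 in red, for 5 members, 5 other immediate early genes and 2 fast-fibre genes, chosen after their values were seen. The axis of the fast-fibre genes Myh4 and Actn3 is wider. Fos, Jun, Nr4a1, Gadd45g, Cebpd and Sgk1 share a tall bar on OVX replicate 3, Egr1 has its own on OVX + E2 replicate 3, and Atf3 has its own on OVX + E2 replicate 2, where Dusp1 is also above its mean.

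The genes most like the members were sought among 11779 genes brighter than the median, by Pearson's r over the 6 arrays with the mean deviation of the 9 members. The closest was Dcun1d4 (r = 0.98), followed by Insm2 (0.97), Nr5a1 (0.97), Sall4 (0.97), Scaf11 (0.96) and Pigt (0.96), and 8 genes passed 0.95. Their ranges over the 6 arrays ran from 0.12 log2 units for Dcun1d4 to 0.45 for Scaf11, far less than that of Fos. With 6 arrays and this many genes a high r is a description of profile shape alone.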

How the data were processed

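Probe sets of 6 Affymetrix arrays, 3 OVX and 3 OVX + E2, were grouped by the treatment in the labels. The authors background-corrected the scans, applied variance stabilization and normalization and summarised probes by median polish in R 2.14.2, per the submitters' processing notes and the study's methods, and deposited the result as log2 numbers without a physical unit, a scale that compresses differences of dim probe sets. Arrays have no read depth, and their number limits the precision.

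All tests used the deposited log2 values with no further normalization. Each of the 45101 probe sets was fitted by group with limma (version 3.58.1, lmFit followed by eBayes, run under R 4.3.3) without covariates; tests were two-sided and p-values were adjusted by Benjamini-Hochberg over all of them. The fit was tested on simulated data: 193 of 200 changes of 1 log2 unit were recovered at p 0.001. These changes were placed in randomly chosen probe sets with independent noise. The recovery thus checks the code and does not measure power for the members, which spread more than most probe sets, or for smaller changes. Probe sets with 1 gene symbol in the platform annotation (34958; 932 had several, 9211 none) were named. A range over 1 log2 unit within a group was counted as wide.

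Members and gene lists were chosen with earlier results of these data known. Named were all members and, in each list, up to 4 genes with the smallest p and, in the immediate early lists, up to 3 with the widest range, the 6 genes most like the members, and the markers. Alternatives were other normalizations, filters, variance models, array weights, a replicate block and leaving out arrays; leaving out both arrays numbered 3, a fast-fibre covariate, and ranges and correlations with arrays left out were added after seeing the data. Probe-level scans were not used here.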

Additional observations from a re-analysis of the deposited data

How the results depend on the processing

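The number of arrays limits these results: 3 against 3 left intervals of over 1 log2 unit on either side of 0 for Fos. The smallest p of any member stayed above 0.05 under every normalization, filter, variance model and weighting that kept all 6 arrays without the covariate. Member probe sets at p 0.05 ranged from 0 to 1 with single arrays left out, were 2 with both arrays numbered 3 left out and 1 with the fast-fibre covariate (Ier2, −0.21, limma, p 0.0143). Members over 1 log2 unit in OVX ranged from 0 to 1 with single arrays left out and were 0 without both arrays numbered 3; in OVX + E2 there was 1, Egr1, after quantile normalization and 1 after cyclic loess. The cause was not tested.

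Over all probe sets, 96 passed p 0.001 and 6216 passed 0.05. At 0.001, quantile normalization left 31, cyclic loess 31 and median centring 164, and the count was 30 among brighter probe sets, 39 with an intensity trend, 37 without both arrays numbered 3, 7 with the covariate and from 19 to 76 with single arrays left out. At 0.05 it was 3510 with quantile normalization, 3424 with cyclic loess, 3546 among brighter probe sets, 2689 with the covariate, and from 3607 to 6191 with single arrays left out. The labels do not say whether the shared replicate numbers pair the arrays. Correlations of same-numbered deviations were −0.125, −0.2 and −0.342, which cannot settle it with 3 arrays per group. With a replicate block 21 probe sets passed 0.001 and 0 members passed 0.05. The intervals of Fos (−0.63 to 0.61) and Egr1 (−0.21 to 0.46) were then narrower, and that of Jun 1417409_at (−1.04 to 0.26) wider.

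Of the differences that changed sign, the intervals of all but Fos without OVX replicate 3, alone or with OVX + E2 replicate 3, included 0. Btg2 (1416250_at) gave 0.147 after quantile normalization, 0.119 after cyclic loess, 0.0495 with array weights, 0.131 without both arrays numbered 3 and 0.0814 with the covariate. Btg2 (1448272_at) gave 0.0542, 0.0288 and, without both arrays numbered 3, 0.0398. Fosb gave −0.0200, −0.0236 and, median-centred, −0.0116. Fos gave 0.121, 0.0945, 0.0337 with weights and 0.321 without both arrays numbered 3. Myc gave 0.00455 with weights, 0.0418 without both arrays numbered 3 and 0.00119 with the covariate. Egr1 gave −0.0633 without both arrays numbered 3 and −0.226 with the covariate. With single arrays left out the differences ran from −0.0496 to 0.0766 for Fosb, from −0.00474 to 0.107 for Junb, from −0.132 to 0.111 for Btg2 (1416250_at), from −0.385 to 0.541 for Fos, from −0.0496 to 0.0595 for Myc, from −0.213 to 0.0526 for Btg2 (1448272_at), from −0.132 to 0.259 for Atf3 and from −0.193 to 0.290 for Egr1.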
